A study of Mus musculus with 9 samples.

Results

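In 9 messenger RNA libraries of cultured mouse stem cells, the 3 libraries numbered 1, with 1 from each of 3 cell types, stood apart from the 6 libraries numbered 2 or 3. The split was chosen by measured values: the libraries numbered 1 deviated together from the others in these same counts, and the meaning of the numbers is not given in the sources used here. All 3 libraries numbered 1 (AFSC 1, ALSC 1 and ABSC 1) are compared here with the 6 others, with the cell type as a term in the fit. Every value of that contrast is therefore a description. Its calls come from an F test of the same chosen contrast, so they sort genes and are no evidence for the split. How the contrast differed between cell types was not used for the choice and was tested. Choosing number 1 as the library that stood apart also selects numbers 2 and 3 for being alike, so their comparison with each other is given as a description too. The test between cell types takes its spread from numbers 2 and 3, so its p-values may be too small.

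All 9 libraries came from cells of the strain given as Sv129 x GOF/GFP F1. AFSC are blastocyst-derived cells kept in Activin A plus bFGF, resemble epiblast stem cells per the labels, and were taken at passages 15 to 20. Changing the medium of AFSC and passaging over 5 times gave ALSC (passages 20 to 25) and ABSC (passages 25 to 30). ABSC grew in Activin A and BMP4 and are labelled as resembling trophoblast stem cells. ALSC are taken to have grown in Activin A and LIF, a recipe that the protocol lists under the ABSC medium's abbreviation. Cell type, medium and passage change together and cannot be told apart. Whether the 3 libraries of a cell type came from separate cultures or lines is not given in the sources used here, so the spread between them may be technical, and the tests measure only that spread.

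Total counts per library lay between 19020419 and 21627656, and the libraries numbered 1 fell inside that range. Among markers of pluripotent cells, Pou5f1 lay at 909 to 1261 CPM (counts relative to the TMM-scaled library size) in the 9 libraries. Nanog lay at 133 to 268 CPM, and Sox2 was low at 10.4 to 27.0 CPM. Of the primed epiblast markers, Dnmt3b lay at 1482 to 2047 CPM and Otx2 at 150 to 205 CPM. Fgf5 lay at 120 to 193 CPM in AFSC and ALSC but at 13.5 to 18.3 CPM in ABSC. The fibroblast markers Dcn and Postn stayed at or below 0.261 CPM, and the blood genes Hbb-bs and Hba-a1 at or below 0.184 CPM. Other markers were above that: Col1a1 lay at 1.22 to 6.34 CPM, with ALSC 1 and ABSC 1 the highest of their cell types, Thy1 at 3.39 to 13.9 CPM, and the leukocyte gene Ptprc at up to 1.46 CPM. The 12 fibroblast genes together came to 19.4 to 26.0 CPM in the libraries numbered 1 and 11.2 to 19.5 CPM in the others. Within that list 6 genes were testable and 1, Thy1, was called higher, and the part of such cells in the differences below was not tested.

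Cells sense low oxygen through prolyl hydroxylases, which mark the transcription factor HIF for destruction as long as oxygen is present. Once stable, HIF raises genes of glucose uptake, glycolysis, blood vessel growth and mitochondrial clearance, and raises some of the prolyl hydroxylases themselves. A separate pathway, the integrated stress response, raises the transcription factor ATF4 when amino acids run short or the endoplasmic reticulum is strained. ATF4 in turn raises genes of amino acid synthesis and import and of tRNA charging. Sterol synthesis is set by SREBP factors, and ribosome building by MYC. Pluripotent cells in culture depend on both, since they divide fast.

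Of 16178 genes tested, 5983 were called different between number 1 and numbers 2 and 3 at an adjusted p under 0.05 (37.0%), 3126 of them higher (19.3%) and 2857 lower (17.7%). With library size as the only scaling the split was 3795 higher and 2272 lower. That scaling moved the median log2 difference of all genes from 0.01 to 0.05. Most differences were small: the median size among called genes was 0.37 on the log2 scale, and 601 of them changed at least 2-fold (328 higher, 273 lower). The library numbered 1 lay above both others of its cell type in all 3 cell types for 3472 genes (21.5%) and below both for 3268 (20.2%). How many genes kept the 3 libraries numbered 1 apart from all 6 others was not counted. The choice of the split favours such separation, so groups without overlap are a description of the gene named. Number 2 against number 3 gave 0 calls (0.00%) with edgeR's quasi-likelihood test, 1 with DESeq2 and 5 in a fit of only those 6 libraries, and 317 genes had an unadjusted p under 0.05. Since the choice favours numbers 2 and 3 being close, this count does not bear on the split. Calls of the split also depended on having both numbers 2 and 3 in the fit, since 3439 genes were called without number 2 and 3246 without number 3.

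Over log2 values of all genes tested, the cell type held 54.8% of the variance between libraries, the number 1 split 27.0% and the way that split differed by cell type 10.2%. Differences between numbers 2 and 3 within a cell type held 7.90%. The coefficient of variation beyond counting noise between numbers 2 and 3 was 0.0277 in AFSC, 0.0514 in ALSC and 0.0408 in ABSC. Between the library numbered 1 and either of the others it ran from 0.132 to 0.200. Numbers 2 and 3 still differed by more than counting noise, with a chi-square per gene of 2.10 to 4.23, and were counted as separate libraries. Genes rich in G and C lay higher in number 1: the median log2 difference was -0.08 in the fifth of genes with the lowest GC content and 0.14 in the fifth with the highest. The part of GC content in single genes was not tested, and list medians after subtracting the trend are given with the alternatives.

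Genes of the low-oxygen response were higher in all 3 libraries numbered 1. Of 24 listed genes, all testable, 22 were called higher and 0 lower, against 19.3% and 17.7% of all genes. Above both others in every cell type were 23, against 21.5% of all genes. Their median log2 difference was 0.91, against 0.01 over all genes, with 0.77 in AFSC, 1.07 in ALSC and 0.90 in ABSC. The 2 members not called were Pfkfb4 (0.17) and Pdk1 (0.07).

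Ddit4, which restrains the growth kinase mTORC1 under stress (chromosome 10, 59949669 to 59951834, GRCm38), stood at 561 CPM in AFSC 1 against 185 and 182 CPM in AFSC 2 and 3. It was at 826 CPM in ALSC 1 against 142 and 162 CPM, and at 389 CPM in ABSC 1 against 97.6 and 95.9 CPM. Every library numbered 1 thus lay above all 6 others, and the log2 difference was 2.03 ± 0.15 (SE of the fit). Vegfa, the growth factor that draws in blood vessels (chromosome 17, 46016993 to 46032369), was at 64.98, 96.5 and 78.7 CPM in AFSC 1, ALSC 1 and ABSC 1. In the 6 others it lay between 23.2 and 33.9 CPM, so the groups did not overlap (1.55 ± 0.06).

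The oxygen sensors themselves were higher. Egln3, a prolyl hydroxylase (chromosome 12, 54178981 to 54203860), stood at 43.3 CPM in AFSC 1 against 13.7 and 12.3 CPM, at 43.7 CPM in ALSC 1 against 10.7 and 11.6 CPM, and at 82.5 CPM in ABSC 1 against 29.4 and 29.8 CPM (1.72 ± 0.08). Egln1, the main prolyl hydroxylase of HIF, was at 57.0, 77.6 and 53.9 CPM in number 1 of AFSC, ALSC and ABSC and at 20.8 to 35.5 CPM in the 6 others (1.203 ± 0.07). For both enzymes the 3 libraries numbered 1 lay above all 6 others.

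Bnip3, a mitochondrial protein that calls in autophagy (chromosome 7, 138890836 to 138909519), was at 66.9, 98.7 and 67.0 CPM in number 1 and at 17.8 to 44.8 CPM in the others (1.33 ± 0.15). Ndrg1, a stress-responsive gene, stood at 22.7 CPM in AFSC 1 against 8.36 and 6.72 CPM, and at 70.0 CPM in ALSC 1 against 20.8 and 23.7 CPM. ABSC 1 had 16.6 CPM against 3.45 and 3.29 CPM (1.79 ± 0.11). Cell types thus differed in level, and AFSC 1 was no higher than ALSC 3, yet each number 1 was above its own partners. Adm, which encodes the vessel-widening peptide adrenomedullin, was low but showed the highest ratio of the list, at 6.08, 5.33 and 3.39 CPM against 0.141 to 0.658 CPM (3.396 ± 0.29). Slc2a1, the glucose transporter GLUT1, moved less, at 531, 674 and 475 CPM in number 1 against 304 to 486 CPM in the others (0.51 ± 0.09). ABSC 1 there overlapped the range of ALSC 2 and 3. Pdk1, a kinase that closes the entry of pyruvate into mitochondria, did not follow, with 151, 177 and 125 CPM in number 1 against 109.7 to 163 CPM.

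Glycolysis genes shared the direction at a smaller size. From 19 symbols, 20 gene entries were tested, since Aldoa is carried by 2 gene IDs. Of these, 16 were called higher and 0 lower, against 19.3% and 17.7% of all genes, with a median of 0.31. Pgk1, an ATP-forming enzyme of the pathway, was at 1401, 1462 and 1203 CPM in number 1 of AFSC, ALSC and ABSC and at 732 to 953 CPM in the others (0.64 ± 0.04). Pfkp, the platelet form of phosphofructokinase, was at 132, 206 and 111 CPM against 34.2 to 94.2 CPM (1.25 ± 0.11). The groups did not overlap for either enzyme. Ldha, which turns pyruvate into lactate, was already abundant, and its 2474 CPM in ABSC 1 lay within the range of the 6 others (1845 to 2535 CPM), although each number 1 was above its own partners (0.29 ± 0.04).

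Eno2, the enolase known from neurons, was at 11.1, 17.9 and 9.33 CPM against 1.06 to 3.34 CPM (2.38 ± 0.14). Aldoc, the brain aldolase, was at 31.6, 51.5 and 27.9 CPM against 14.1 to 24.5 CPM (1.01 ± 0.07). Gapdh ranged from 52.9 CPM in AFSC 1 to 385 CPM in AFSC 2, and in ALSC and ABSC numbers 2 and 3 lay on either side of number 1. It has many near-identical copies in the genome, so its count is uncertain.

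**Figure D1:**
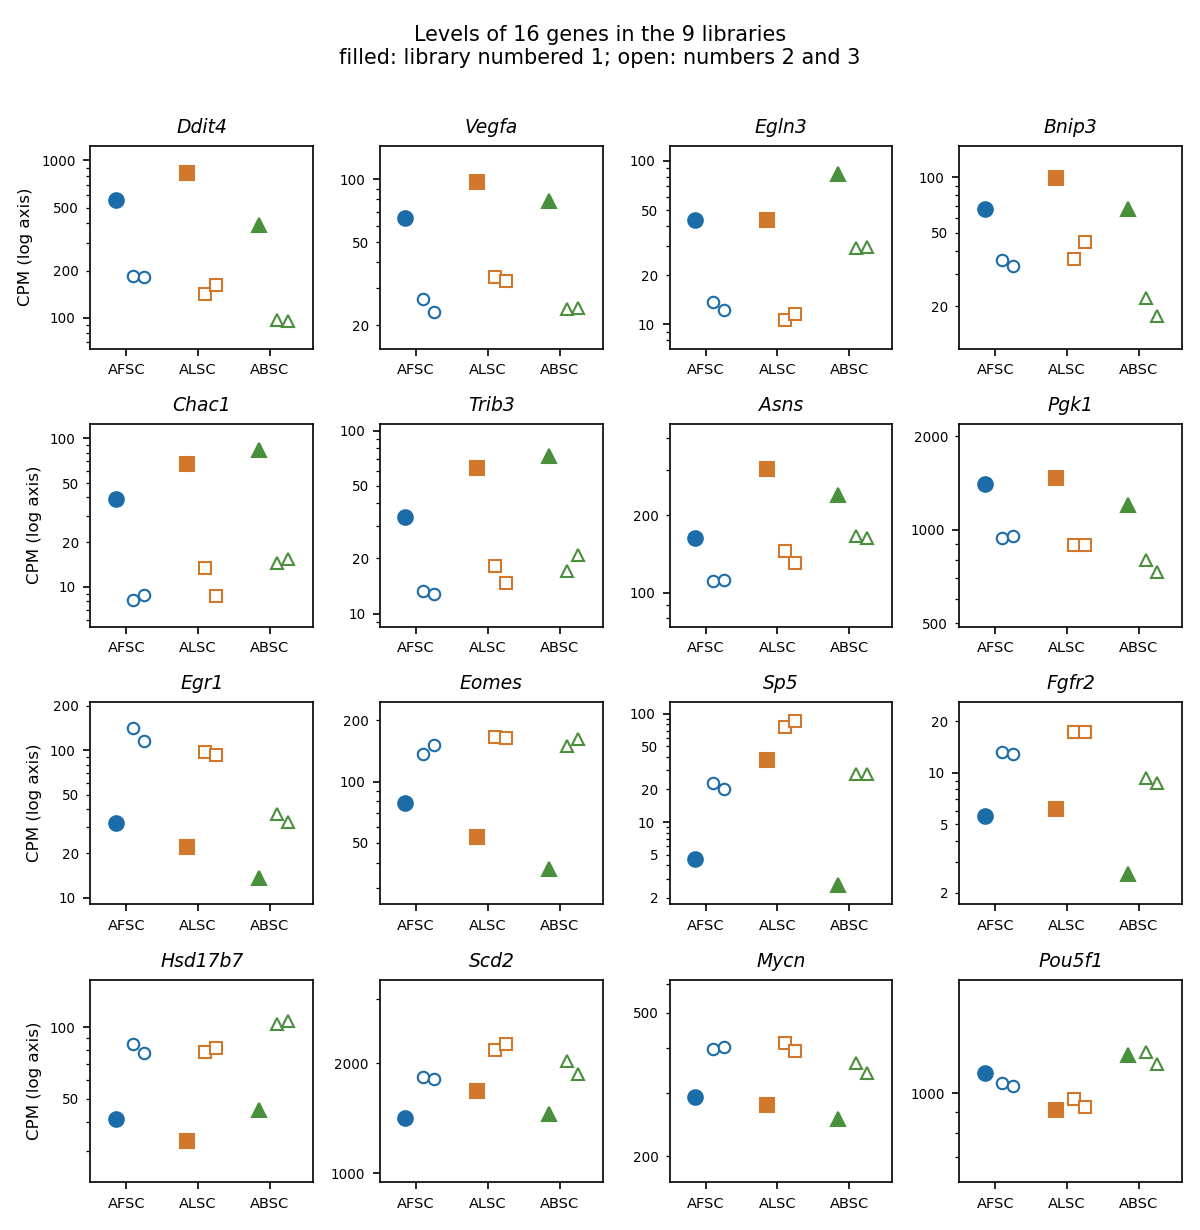
CPM of 16 genes (log axes, panels differ in range) in the 9 libraries, by cell type. Filled symbols are the library numbered 1 and open symbols numbers 2 and 3. Ddit4 reaches 826 CPM in ALSC 1 with no other library of numbers 2 and 3 above 185 CPM, Egr1 shows the reverse, and Pou5f1 shows no separation.

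Promoters of these genes are shown because members differed together and several share a short motif. The table of RefSeq promoters (250 bases before to 50 after a start, GRCm38.p6) held 19 of the 24 low-oxygen genes and 24 of the 27 tested genes of the ATF4 list. The letters ACGTG, the core of the hypoxia response element, were searched on both strands. They also lie within the E-box CACGTG, which other factors use. They occurred in 15 of 28 promoters of the low-oxygen list (53.6%), against 24.6% of 14242 promoters of all tested genes and 19.6% of all 32851 promoters. In the glycolysis list 15 of 30 promoters held them (50%), and in the cholesterol synthesis list 4 of 19 (21.1%). Capitals below mark a match, on either strand. Each promoter shown here holds a match, whereas those of Adm, Pfkp and Eno2, genes with large differences, held none.

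Bnip3, chr7:138909457-138909756, minus strand: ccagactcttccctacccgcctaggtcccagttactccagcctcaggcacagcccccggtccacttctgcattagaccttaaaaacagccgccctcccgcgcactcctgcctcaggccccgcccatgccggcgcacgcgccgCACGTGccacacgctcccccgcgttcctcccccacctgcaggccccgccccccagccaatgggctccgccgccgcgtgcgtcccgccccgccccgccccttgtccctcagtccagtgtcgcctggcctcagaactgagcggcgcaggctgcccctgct

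P4ha1, chr10:59323046-59323345, plus strand: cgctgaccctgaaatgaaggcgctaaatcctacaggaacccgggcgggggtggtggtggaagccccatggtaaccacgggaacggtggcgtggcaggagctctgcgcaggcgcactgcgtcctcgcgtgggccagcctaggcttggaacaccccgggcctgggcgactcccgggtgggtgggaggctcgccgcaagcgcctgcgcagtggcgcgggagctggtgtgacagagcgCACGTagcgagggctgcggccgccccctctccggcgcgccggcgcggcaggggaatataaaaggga

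Slc2a1, chr4:119108495-119108794, plus strand: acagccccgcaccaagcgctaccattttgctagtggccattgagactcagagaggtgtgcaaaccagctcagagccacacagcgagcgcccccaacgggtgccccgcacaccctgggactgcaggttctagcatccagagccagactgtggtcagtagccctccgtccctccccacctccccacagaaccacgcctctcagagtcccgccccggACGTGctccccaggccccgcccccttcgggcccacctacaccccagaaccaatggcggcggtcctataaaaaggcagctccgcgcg

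In Bnip3 the match is the palindrome, with its first base 108 bases before the start (position -108). P4ha1, an enzyme of collagen folding, has it at -16 and Slc2a1 at -36. P4ha1 was at 61.4, 84.6 and 44.8 CPM in number 1 and at 23.1 to 36.7 CPM in the others (1.11 ± 0.11). A match is a description of letters, and binding was not measured.

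Genes of the ATF4 response made up the other large group that was higher. Of 27 tested, 20 were called higher and 0 lower, against 19.3% and 17.7% of all genes. Above both partners in every cell type were 19, against 21.5% of all genes. The median log2 difference was 0.61, with 0.35 in AFSC, 0.79 in ALSC and 0.58 in ABSC. Atf4 itself, which is known to be set mostly at translation, was at 324, 371 and 401 CPM in number 1 of AFSC, ALSC and ABSC and at 287 to 338 CPM in the others (0.21 ± 0.05).

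Chac1, which breaks down glutathione (chromosome 2, 119351229 to 119354381), had the largest difference of any protein-coding gene at 10 CPM or more (2.45 ± 0.10). It stood at 39.3 CPM in AFSC 1 against 8.13 and 8.88 CPM, at 67.6 CPM in ALSC 1 against 13.3 and 8.71 CPM, and at 83.7 CPM in ABSC 1 against 14.5 and 15.3 CPM. No library numbered 2 or 3 reached the lowest of number 1. Trib3, a pseudokinase that feeds back on ATF4 (chromosome 2, 152337422 to 152344032), was at 33.6, 62.9 and 72.9 CPM against 12.7 to 20.8 CPM (1.77 ± 0.10). Vldlr, a lipoprotein receptor, was at 20.8, 46.2 and 37.2 CPM against 5.07 to 11.4 CPM (2.00 ± 0.10).

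Among the enzymes, Asns, which makes asparagine (chromosome 6, 7675169 to 7693254), was at 164 CPM in AFSC 1 against 111 and 112 CPM. ALSC 1 had 303 CPM against 145 and 130.3 CPM, and ABSC 1 had 240.1 CPM against 166 and 164 CPM (0.75 ± 0.11). AFSC 1 did not exceed ABSC 2 or 3, so the separation holds within a cell type. Pck2, the mitochondrial PEP carboxykinase, was at 116, 196 and 143 CPM against 54.2 to 72.0 CPM (1.31 ± 0.09). The glycine carrier Slc6a9 was at 5.67, 11.6 and 11.6 CPM against 2.54 to 3.74 CPM (1.43 ± 0.15).

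The list was not uniform. Slc7a11, the cystine carrier that ATF4 and NRF2 both raise, was level at 3.81, 4.32 and 5.75 CPM against 3.52 to 6.53 CPM. Sesn2 (0.01), Cth (0.01), Ppp1r15a (-0.05) and Slc7a3 (-0.11) were not called either. Among 20 tRNA synthetases, which charge tRNAs with amino acids, 11 were called higher and 1 lower. Over all genes 19.3% were called higher and 17.7% lower, and the list median was 0.16. Sars, for serine, was at 266, 358 and 295 CPM against 194 to 222 CPM (0.56 ± 0.05), and Cars, for cysteine, at 160.0, 241 and 195 CPM against 130.3 to 148 CPM (0.52 ± 0.08). Rars, for arginine, was the member called lower (-0.13).

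Of 31 promoters of the ATF4 list, 7 (22.6%) held TGATGNAA, a C/EBP-ATF response element searched on both strands. The share was 2.23% over promoters of all tested genes and 3.97% over all promoters, and 0 of 28 low-oxygen promoters had it. The ATF4 list also held ACGTG in 8 promoters (25.8%).

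Chac1, chr2:119350992-119351291, plus strand: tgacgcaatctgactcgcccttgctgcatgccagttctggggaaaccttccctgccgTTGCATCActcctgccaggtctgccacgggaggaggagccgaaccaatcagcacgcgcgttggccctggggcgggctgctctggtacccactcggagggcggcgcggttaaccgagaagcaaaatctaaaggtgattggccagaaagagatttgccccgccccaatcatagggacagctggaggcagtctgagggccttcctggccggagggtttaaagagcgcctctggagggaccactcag

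Asns, chr6:7693160-7693459, minus strand: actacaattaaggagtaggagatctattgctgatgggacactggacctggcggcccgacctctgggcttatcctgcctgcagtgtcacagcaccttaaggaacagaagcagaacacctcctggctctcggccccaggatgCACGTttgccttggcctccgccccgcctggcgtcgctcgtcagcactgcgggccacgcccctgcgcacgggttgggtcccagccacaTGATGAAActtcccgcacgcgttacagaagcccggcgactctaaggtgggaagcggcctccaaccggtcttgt

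Trib3, chr2:152344011-152344310, minus strand: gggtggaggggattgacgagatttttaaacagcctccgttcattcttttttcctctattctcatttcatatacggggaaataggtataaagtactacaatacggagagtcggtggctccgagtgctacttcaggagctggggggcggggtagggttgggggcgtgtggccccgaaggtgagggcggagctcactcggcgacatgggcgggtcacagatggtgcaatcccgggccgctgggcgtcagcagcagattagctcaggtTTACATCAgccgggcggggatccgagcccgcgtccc

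The match begins at -193 in Chac1 and at -23 in Asns, and lies after the start, at 15, in Trib3. Asns also has ACGTG, at -110. The promoter of Slc7a11 held 2 matches, and that gene was not called.

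Other arms of stress did not move as a block. The unfolded protein response senses misfolded protein in the endoplasmic reticulum. In its list 5 of 20 genes were called higher (25%) and 6 lower (30%), against 19.3% and 17.7% of all genes. Herpud1, a degradation factor, was higher at 23.4, 33.5 and 34.2 CPM against 12.4 to 17.5 CPM (0.98 ± 0.07), and Xbp1, a transcription factor, was at 39.8, 34.3 and 34.8 CPM against 20.3 to 29.4 CPM (0.59 ± 0.10). The chaperone Hspa5 (BiP) was at 703, 569 and 624 CPM against 644 to 738 CPM (-0.12). It was above both partners in AFSC 1, and its call was lost in 12 of 16 alternative settings. Dnajb11, its partner, was lower (-0.41 ± 0.06). Of 14 heat shock genes 2 were called higher and 2 lower (14.3% each), below those shares of all genes.

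Genes of the antioxidant response ran the other way, with 0 of 16 called higher and 7 lower (17.7% of all genes were called lower). They included Srxn1, which repairs peroxiredoxins, at 11.7, 13.6 and 15.2 CPM against 15.97 to 27.8 CPM (-0.74 ± 0.09), and both subunits of the first enzyme of glutathione synthesis, Gclc (-0.39) and Gclm (-0.39). Among 19 p53 targets, 5 were called higher and 8 lower, against 19.3% and 17.7% of all genes. The cell cycle inhibitor Cdkn1a was lower, at 165, 118 and 104 CPM against 144 to 219 CPM (-0.47 ± 0.06), while Bbc3, which promotes apoptosis, was higher, at 63.2, 80.1 and 62.6 CPM against 31.0 to 46.2 CPM (0.78 ± 0.08).

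**Figure D2:**
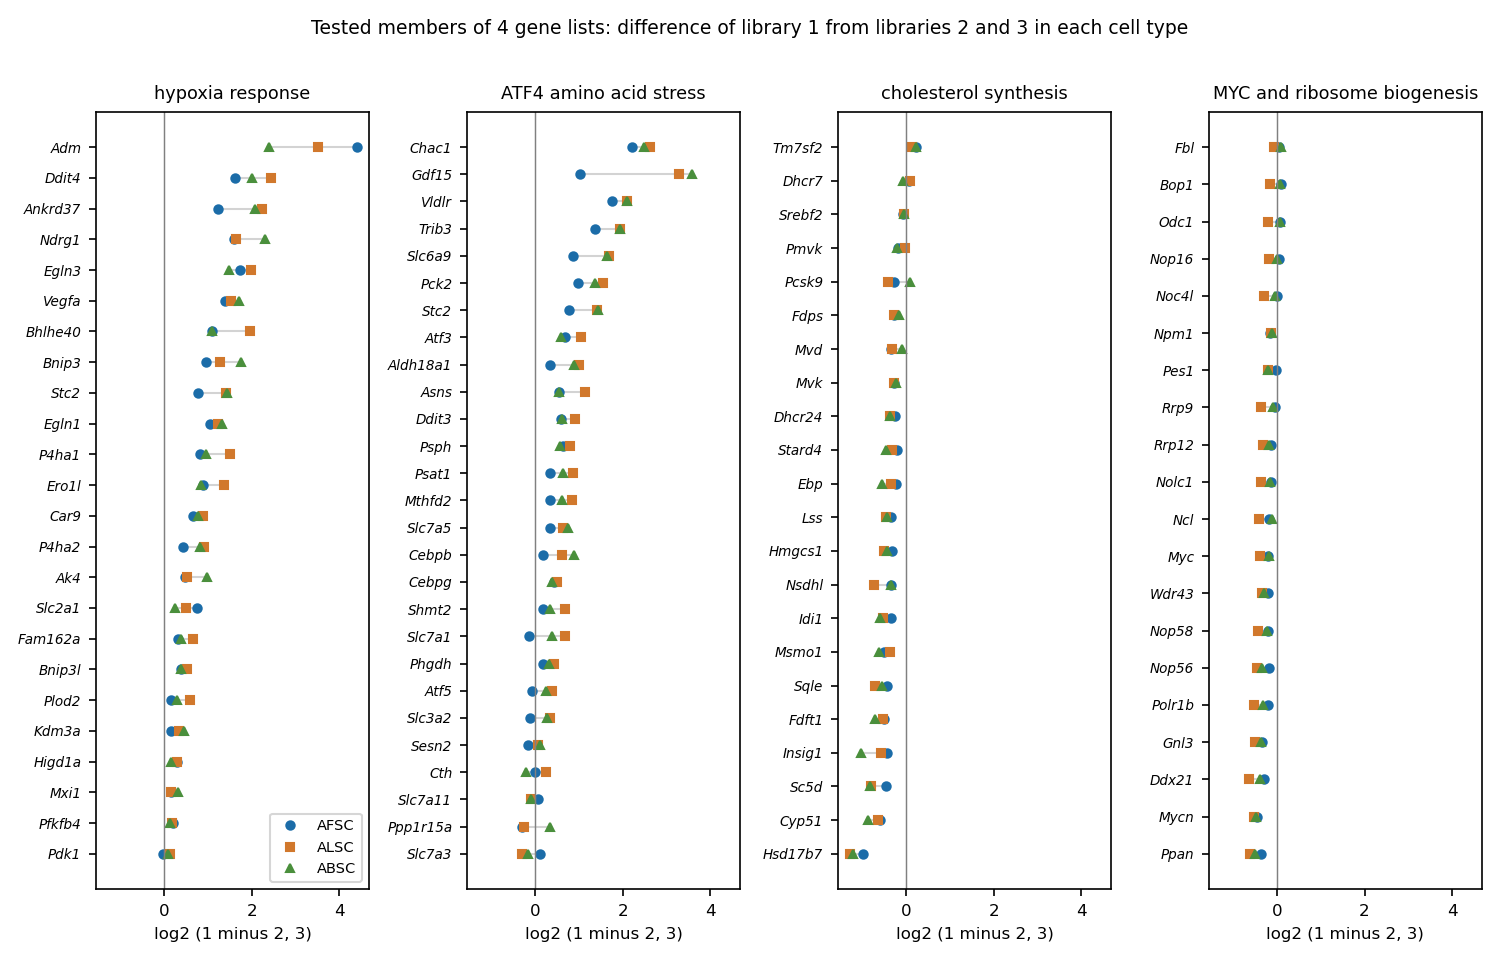
Log2 difference of the library numbered 1 from numbers 2 and 3 (horizontal axis) for tested members of 4 lists, with 1 symbol per cell type. Nearly all members of the low-oxygen and ATF4 lists lie right of 0 and those of the cholesterol and ribosome biogenesis lists left of it, with Slc7a11 at -0.05 and Tm7sf2 at 0.21 among the exceptions.

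Cholesterol synthesis genes were lower in number 1. Of 24 tested, 20 were called lower and 1 higher (Tm7sf2, 0.21), against 17.7% and 19.3% of all genes. The median was -0.41, with -0.34 in AFSC, -0.44 in ALSC and -0.45 in ABSC. Hsd17b7, an enzyme late in the pathway, stood at 41.1 CPM in AFSC 1 against 84.8 and 78.3 CPM, at 33.3 CPM in ALSC 1 against 78.6 and 81.9 CPM, and at 45.0 CPM in ABSC 1 against 104 and 106 CPM. No library numbered 1 reached the lowest of the others (-1.16 ± 0.06).

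Srebf2, the factor that drives the pathway, was level at the RNA (-0.05), as was Dhcr7 (0.03). In the fatty acid list 7 of 14 were called lower and 1 higher, against 17.7% and 19.3% of all genes. Scd2, a desaturase, was at 1418, 1678 and 1453 CPM against 1816 to 2258 CPM (-0.40 ± 0.04). Acss2, which activates acetate, was the gene called higher (0.49 ± 0.09). The letters TCACNCCAC, of a sterol regulatory element, were found in 1 of 19 cholesterol promoters (5.26%), that of Hmgcs1. They occurred in 1.22% of promoters of tested genes and in 2 of 30 glycolysis promoters (6.67%), a list that was higher in number 1. These letters and the cholesterol list were not part of the planned promoter search.

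Ribosome building and DNA copying were lower by small amounts. In the list of MYC and ribosome biogenesis 15 of 20 genes were called lower and 0 higher, against 17.7% and 19.3% of all genes. The list median was -0.23. Mycn, the form of MYC abundant here, was at 292, 278 and 254 CPM in number 1 against 341 to 412 CPM (-0.49 ± 0.04). Ddx21, a helicase of the nucleolus, was at 919, 599 and 846 CPM against 926 to 1135 CPM (-0.44 ± 0.05). Both genes kept all 3 libraries numbered 1 below the 6 others. Of 20 replication genes 12 were called lower (60%, against 17.7% of all genes) and 1 higher, with a median of -0.12. Those called lower were led by the S-phase cyclin Ccne2 at 29.5, 27.6 and 26.8 CPM against 35.9 to 49.0 CPM (-0.56 ± 0.08). Of 20 mitosis genes 3 were called higher and 5 lower, near the 19.3% and 17.7% of all genes. Ribosomal protein genes were level, with 2 of 26 called higher (7.69%), 0 lower and a median of 0.01. Nuclear subunits of oxidative phosphorylation had 4 of 26 called higher (15.4%, near the 19.3% of all genes), 0 lower and a median of 0.04.

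Egr1, a target of ERK signalling, was at 32.1 CPM in AFSC 1 against 142 and 116 CPM, at 22.2 CPM in ALSC 1 against 97.6 and 93.1 CPM, and at 13.6 CPM in ABSC 1 against 37.2 and 32.9 CPM (-1.87 ± 0.15). Ier3, from the same list, was the reverse, at 27.3, 23.5 and 18.0 CPM against 2.48 to 4.74 CPM (2.77 ± 0.12). Both were separated from the 6 other libraries without overlap. Over the 22 immediate early genes 7 were called higher and 5 lower, against 19.3% and 17.7% of all genes. Klf2, a factor of the naive state too, was at 1.55, 5.19 and 0.737 CPM against 3.90 to 21.1 CPM (-2.11 ± 0.22).

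In the FGF and ERK list 9 of 16 genes were called lower and 1, Ier3, higher, against 17.7% and 19.3% of all genes. The list median was -0.30. Spry4, a feedback inhibitor, was at 35.0 CPM in AFSC 1 against 37.6 and 42.3 CPM, at 13.2 CPM in ALSC 1 against 33.6 and 31.1 CPM, and at 34.1 CPM in ABSC 1 against 60.2 and 55.5 CPM (-0.70 ± 0.19). The result for Spry4 changed in 8 of 16 alternative settings, with its call lost in 6 fits with libraries left out. Dusp6, the phosphatase that restrains ERK, was level at 361, 216 and 288 CPM against 212 to 331 CPM (0.00 ± 0.05). Fgfr2, an FGF receptor listed with the trophoblast, was at 5.62, 6.11 and 2.55 CPM against 8.70 to 17.4 CPM (-1.48 ± 0.12). It overlaps other tested genes on the chromosome, and the unstranded counts cannot tell them apart.

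WNT targets had 7 of 16 genes called lower and 3 higher (median -0.43), against 17.7% and 19.3% of all genes. Their share called higher (18.75%) was thus near that of all genes. Sp5, a direct target, was at 4.59 CPM in AFSC 1 against 22.7 and 20.1 CPM, at 37.6 CPM in ALSC 1 against 76.3 and 86.4 CPM, and at 2.603 CPM in ABSC 1 against 27.8 and 27.6 CPM (-1.85 ± 0.39). Axin2, a feedback inhibitor, was at 29.3, 40.0 and 34.2 CPM against 50.9 to 92.3 CPM, and the receptor Fzd6 at 19.6, 20.2 and 11.2 CPM against 39.1 to 44.3 CPM (-1.31 ± 0.11). For these receptors and feedback genes each number 1 was below its partners. The result for Sp5 changed in 4 of 16 alternative settings, with its call lost in 3 fits with libraries left out.

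Among Activin and Nodal targets 8 of 16 were called lower and 1 higher (median -0.19), against 17.7% and 19.3% of all genes. Eomes, a T-box factor of the streak and trophoblast (chromosome 9, 118478212 to 118486132), was at 78.8 CPM in AFSC 1 against 137 and 151 CPM, at 53.2 CPM in ALSC 1 against 165 and 163 CPM, and at 37.4 CPM in ABSC 1 against 150.1 and 162 CPM (-1.48 ± 0.23). The ligand Nodal was at 163, 165 and 91.6 CPM against 179 to 271 CPM (-0.64 ± 0.13). Lefty2, an antagonist, was level (-0.02 ± 0.10), whereas Lefty1, its relative, was at 89.2, 215 and 5.21 CPM against 148 and 154, 312 and 304, and 18.6 and 24.4 CPM in their partners (-0.84 ± 0.24). The call for Lefty1 was lost in 13 of 16 alternative settings. Cer1, a secreted inhibitor, was the member called higher (1.22), although it was at 0 to 0.101 CPM in ABSC. Fst, which binds Activin and is listed with the primed epiblast, was lower at 132, 125 and 93.3 CPM against 184 to 273 CPM (-0.97 ± 0.05).

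BMP targets had 3 of 12 called higher and 3 lower (25% each). LIF and STAT3 targets had 2 of 13 higher (15.4%) and 4 lower (30.8%). Over all genes the shares were 19.3% and 17.7%. Id1, a BMP target, was at 3.14, 6.43 and 68.4 CPM against 1.37 and 1.74, 1.93 and 2.75, and 56.8 and 54.1 CPM (0.69 ± 0.19), while Id3 was lower (-0.49 ± 0.07).

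Of 14 genes of the core pluripotency list, 7 were called lower and 0 higher (17.7% of all genes were called lower), with a median of -0.18. Pou5f1, the central pluripotency factor, was at 1122, 909 and 1239 CPM in number 1 of AFSC, ALSC and ABSC and at 926 to 1261 CPM in the others (0.02 ± 0.04). Sox2 (-0.13 ± 0.09) and the primed epiblast factor Otx2 (0.04 ± 0.05) were not called. Nanog was not called either (-0.01 ± 0.07), but that value joins 0.15 in ALSC and -0.29 in ABSC. Among the members called lower were Gdf3, a TGF-beta family ligand (-1.10 ± 0.14), and Sall4 (-0.35 ± 0.05). In the primed epiblast list 4 of 15 were lower and 2 higher, against 17.7% and 19.3% of all genes.

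Trophoblast genes did not share a direction, with 2 of 13 called higher and 4 lower, against 19.3% and 17.7% of all genes. Cdx2, a master factor of trophectoderm, was at 0 in AFSC 1 and ALSC 1 and at most 0.235 CPM in the other AFSC and ALSC libraries, where 3 counts correspond to 0.138 to 0.157 CPM. In ABSC it was at 0.835 CPM in ABSC 1 and 6.43 and 6.07 CPM in ABSC 2 and 3. Hand1, the factor most abundant in ABSC, was at 244 CPM in ABSC 1 against 208 and 188 CPM (0.30 in that cell type). Ascl2, a placental factor, was at 8.97, 7.99 and 9.82 CPM in number 1 against 1.77 to 3.76 CPM (1.86 ± 0.16). Markers of endoderm (4 of 15 higher, 0 lower), mesoderm (4 of 12 higher, 1 lower) and neural ectoderm (2 of 5 higher, 1 lower) had few tested members. In bulk libraries fewer cells of a type and less RNA per cell cannot be told apart.

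**Figure D3:**
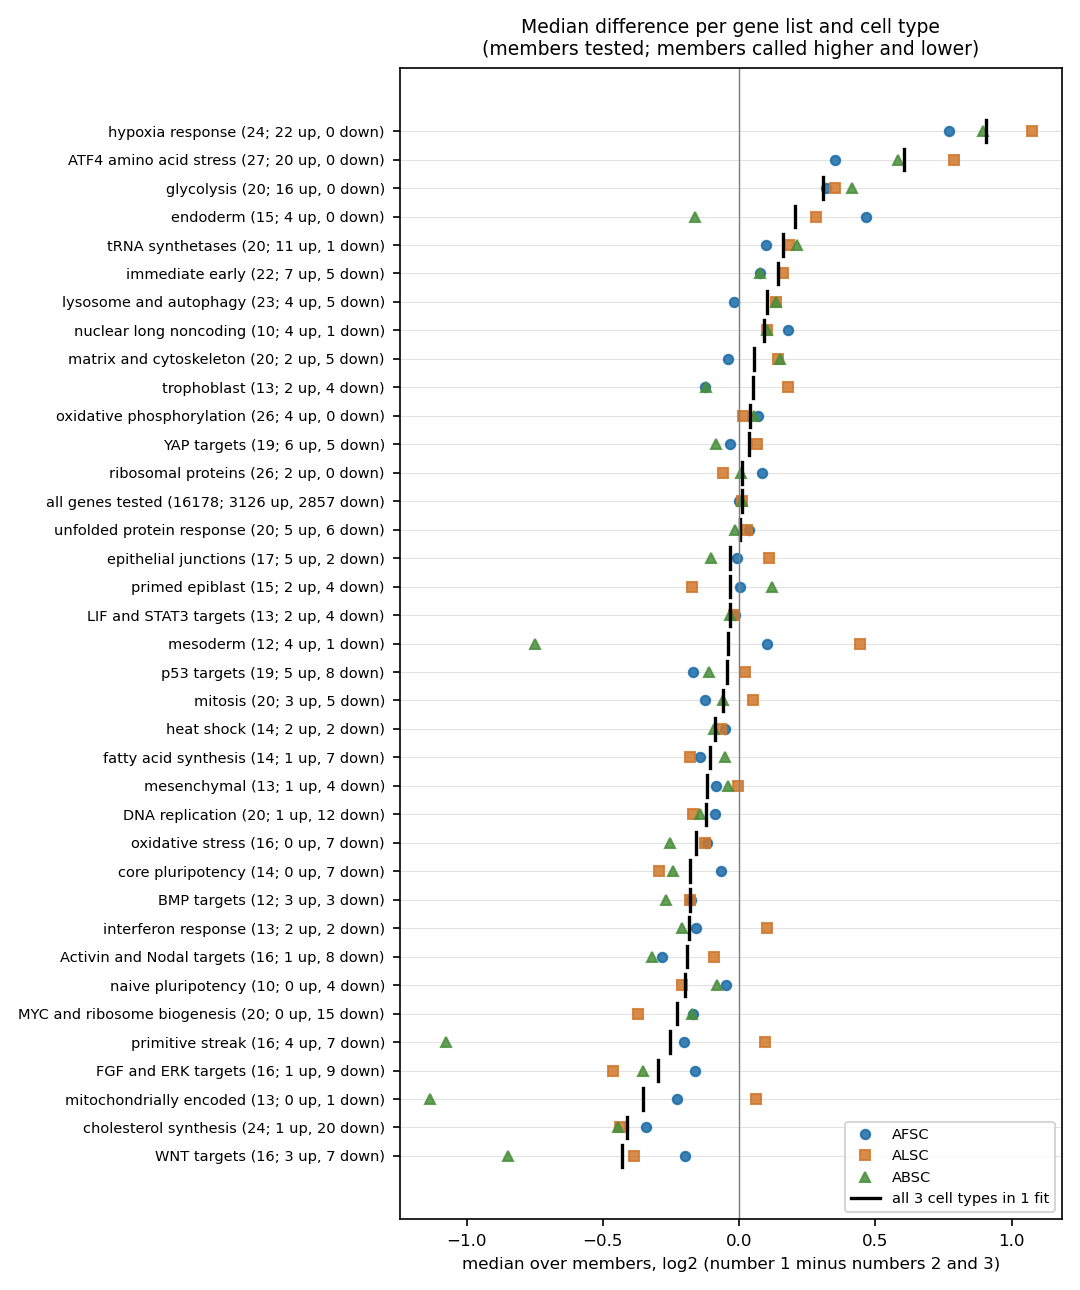
Median log2 difference over the tested members of each list with 10 or more, for each cell type (symbols) and for the joint fit (black bar), ordered by the joint value, with the numbers tested and called in the labels. The low-oxygen, ATF4 and glycolysis lists are at the top and the cholesterol and WNT lists at the bottom, while the sign of medians near 0 (such as LIF and STAT3 targets, epithelial junctions, mesoderm and primed epiblast) changed with the scaling.

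Ranked over all protein-coding genes at 10 CPM or more, further genes had large differences in every cell type. Ccng2, an unusual cyclin that slows the cell cycle, was at 36.9, 41.4 and 25.6 CPM against 5.82 to 8.88 CPM (2.27 ± 0.09). Banp, a nuclear matrix protein, was at 39.9, 45.0 and 47.1 CPM against 12.7 to 15.5 CPM (1.67 ± 0.08), with overlapping gene models. Smtnl2 was at 30.3, 47.0 and 33.2 CPM against 6.98 to 19.003 CPM (1.68 ± 0.10). For these 3 genes the groups did not overlap.

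Slc30a1, which pumps zinc out of the cell, was at 17.7, 25.0 and 18.8 CPM against 45.4 to 55.1 CPM (-1.27 ± 0.09). Irgm1, an interferon-inducible GTPase, was at 10.1, 30.1 and 29.2 CPM against 26.4 and 22.9, 47.0 and 50.0, and 104 and 102 CPM (-1.25 ± 0.22). Rps10 was at 14.9, 9.65 and 10.7 CPM against 27.0 to 35.4 CPM (-1.44 ± 0.09). Its mean of 25.0 CPM compares with 446 CPM or more for each listed ribosomal protein, and ribosomal protein genes have near-identical copies, so this count is uncertain.

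Differences of number 1 were wider in ALSC and ABSC than in AFSC, as a description. Across 16178 genes its standard deviation on the log2 scale was 0.51 in AFSC, 0.58 in ALSC and 0.62 in ABSC. At a mean of 1 CPM or more, 164 genes were at least 2-fold higher in AFSC 1, 452 in ALSC 1 and 424 in ABSC 1, and 81 of them in all 3 cell types. At least 2-fold lower were 187, 250 and 326 genes, and 36 in all 3. Differences correlated across genes with a Pearson r of 0.43 between AFSC and ALSC, 0.44 between AFSC and ABSC and 0.51 between ALSC and ABSC. Each of these uses its own libraries, genes are not independent replicates, and no p is given.

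**Figure D4:**
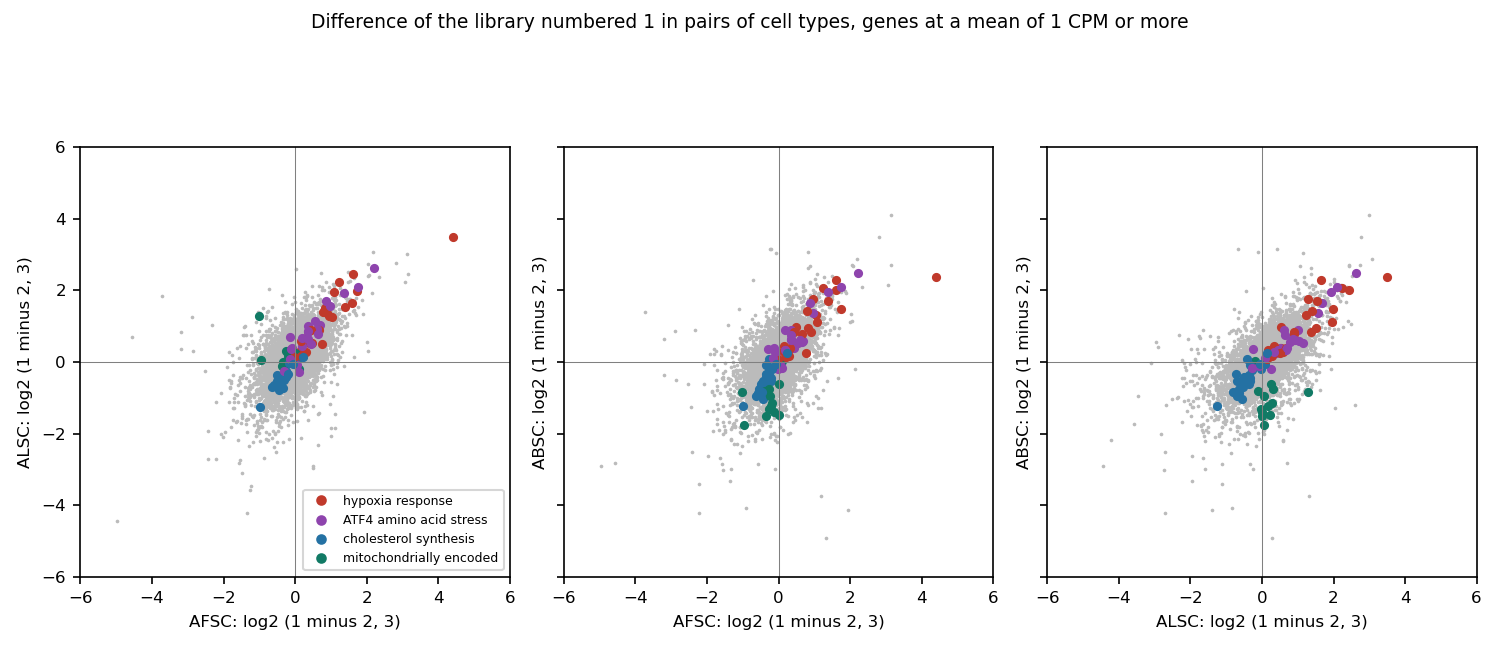
Log2 difference of the library numbered 1 in 1 cell type against another, for genes at a mean of 1 CPM or more (grey), with members of 4 lists in colour. Low-oxygen and ATF4 genes lie in the upper right of all 3 panels, and mitochondrially encoded genes lie lowest in ABSC, with a list median of -1.14 there against 0.06 in ALSC and -0.23 in AFSC.

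The test of whether the difference itself differed between cell types called 1399 genes (8.65%) with edgeR's quasi-likelihood test, and 3890 had an unadjusted p under 0.05. Each cell type has 1 library numbered 1, so the spread in this test comes from numbers 2 and 3 alone. A deviation of a single library cannot be told apart from a response of that cell type. The choice of number 1 favours numbers 2 and 3 being close, so this spread and the p-values may be too small. Of the 1399 genes, 602 had the same sign in all 3 cell types and 797 did not, and for 313 the cell types differed by 2-fold or more. The count was lower with DESeq2, at 359, and fell to 544 without ALSC 1, 601 without AFSC 1, 743 without AFSC 2 and 793 without AFSC 3.

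Mitochondrially encoded genes gave the smallest p-values. Of 13 tested, 9 were called, against 8.65% of all genes, and the list was lowest in ABSC 1. The complex I subunit mt-Nd1 (chromosome MT, 2751 to 3707) was at 819 CPM in ABSC 1 against 2041 and 2242 CPM, at 2013 CPM in ALSC 1 against 1975 and 2059 CPM, and at 1988 CPM in AFSC 1 against 2105 and 2213 CPM. Its log2 difference was -1.39 ± 0.06 in ABSC, 0.00 ± 0.05 in ALSC and -0.12 ± 0.05 in AFSC (adjusted p = 5.12e-12). The complex IV subunit mt-Co1 was at 3571 CPM in ABSC 1 and at 5296 to 6877 CPM in the 8 others (adjusted p = 1.55e-08). Mitochondrially encoded genes made up 0.794% of the counts of ABSC 1 and 1.36% to 1.68% of those of the other libraries. This difference rests on 1 library.

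Primitive streak genes were also low in ABSC 1 beyond the other cell types. Of 16 tested, 8 were called between types, against 8.65% of all genes. The list median was -1.07 in ABSC, 0.09 in ALSC and -0.20 in AFSC. T (brachyury), a factor of the streak and mesoderm (chromosome 17, 8434423 to 8442496), was at 72.2 CPM in ABSC 1 against 151 and 153 CPM. It was at 134 CPM in ALSC 1 against 132 and 143 CPM, and at 65.9 CPM in AFSC 1 against 72.8 and 74.0 CPM (adjusted p = 1.82e-08). Evx1, a posterior streak factor that was abundant in ABSC only, was at 25.0 CPM in ABSC 1 against 61.0 and 61.3 CPM (adjusted p = 0.00339). Elsewhere Evx1 stayed between 0.835 and 1.38 CPM. Its joint difference of -0.97 rests on ABSC 1, and without that library it was 0.0603. The call between cell types was also lost without ALSC 1 (adjusted p = 0.278). Eomes differed in size rather than sign, at -0.87 ± 0.07 in AFSC, -1.62 ± 0.07 in ALSC and -2.06 ± 0.08 in ABSC (adjusted p = 2.90e-08).

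Over all genes 8.65% were called between cell types, which is the share to set beside each list count here. In the ATF4 list 15 of 27 genes were called. Asns was at 1.14 ± 0.06 in ALSC, 0.56 ± 0.06 in AFSC and 0.54 ± 0.06 in ABSC (adjusted p = 2.80e-05), and without ALSC 1 the AFSC and ABSC values differed by 0.02. In the low-oxygen list 10 of 24 were called, among them Ddit4, at 2.44 ± 0.06 in ALSC, 2.01 ± 0.06 in ABSC and 1.61 ± 0.06 in AFSC (adjusted p = 1.93e-06). Vegfa (adjusted p = 0.178) and Chac1 (adjusted p = 0.436) were not called, with ranges between cell types of 0.33 and 0.41 on the log2 scale. Txnip, which limits glucose uptake, was at 155 CPM in ALSC 1 against 42.9 and 41.7 CPM, at 73.6 CPM in AFSC 1 against 46.1 and 48.5 CPM, and at 55.8 CPM in ABSC 1 against 29.8 and 28.4 CPM (adjusted p = 1.08e-08). Mat2a, which makes the methyl donor S-adenosylmethionine, was at 242 CPM in ALSC 1 against 590.2 and 598 CPM and at 310.1 CPM in ABSC 1 against 662 and 674 CPM. In AFSC 1 it was at 515 CPM against 668 and 656 CPM (adjusted p = 3.75e-09). None of the 20 replication genes was called between cell types, against 8.65% of all genes, and 6 of the 24 cholesterol genes were.

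**Figure D5:**
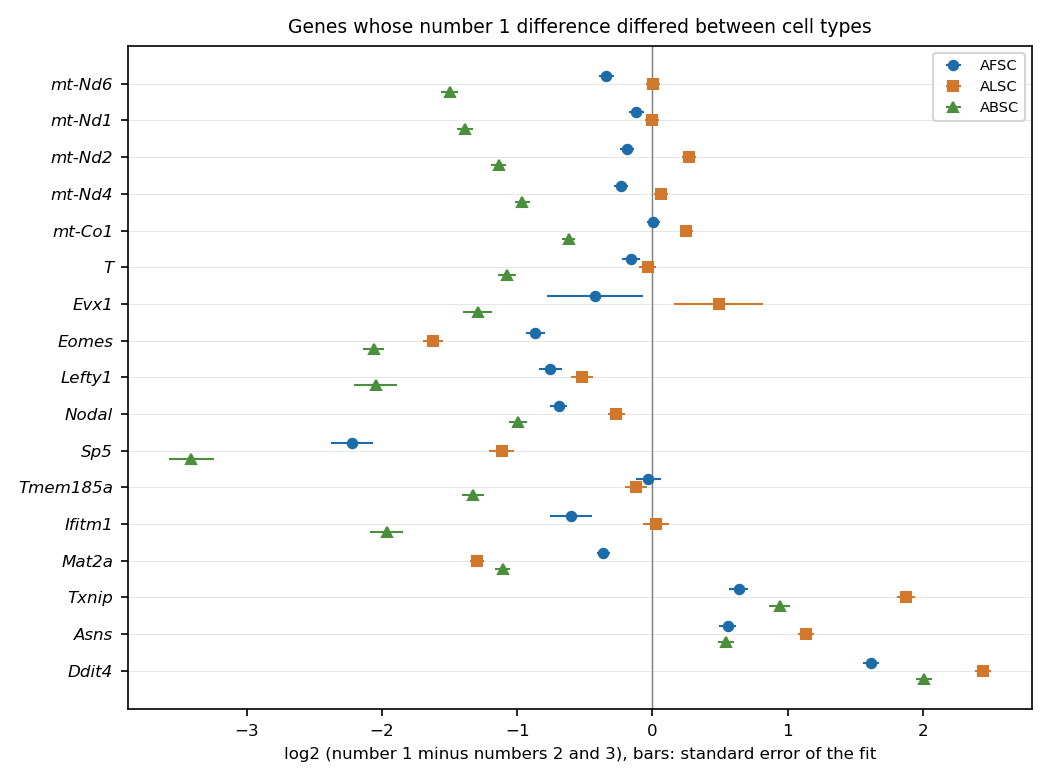
Log2 difference of the library numbered 1 from numbers 2 and 3 in each cell type (symbols, with the standard error of the fit) for 17 genes whose difference differed between cell types. The mt- genes, T and Tmem185a are lowest in ABSC, whereas Txnip, Asns and Ddit4 are highest in ALSC.

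Between numbers 2 and 3, the 4 genes named by the smallest p at 10 CPM or more were Rps29, Atp5k, Gm8121 and Uchl3, with log2 differences of number 3 from number 2 of 0.33, 0.27, -0.50 and -0.26. None of them was called.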

How the data were processed

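Messenger RNA from 9 libraries of cultured mouse cells was sequenced in 150-base reads with an unstranded kit, per the labels' protocols. The authors deposited 1 table of raw read counts per gene. The submitters' processing notes name HISAT2 2.0.5, featureCounts 1.5.0-p3 and the build mm9, but 98.3% of the gene coordinates in the table equal those of GRCm38, which is the build printed here.

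The counts were analysed with edgeR 4.0.16 (quasi-likelihood, robust, TMM scaling, Benjamini-Hochberg adjustment, calls at an adjusted p under 0.05) in R 4.3.3 after filterByExpr (minimum count 10, minimum total 15), which left 16178 genes. CPM are counts relative to the TMM-scaled library size. Differences are log2, number 1 minus numbers 2 and 3, with cell type as a term (5 residual df). The difference between cell types came from the interaction (3 df) and number 3 against number 2 from number as a factor with 3 levels (4 df). Loci without a gene ID held 0.208% to 0.227% of counts and were left out. The tests were also run on simulated counts with known changes and the same dispersion for all genes. Deviations from the cell type means correlated over genes between same-numbered libraries (r 0.543 to 0.648 for number 1, 0.286 to 0.403 for number 2, 0.331 to 0.478 for number 3). Deviations within a cell type sum to 0, so a shared deviation of number 1 by itself makes the values for numbers 2 and 3 positive, and these are not read as pairing. No label ties a number to a shared culture or day.

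Members and gene lists were chosen with earlier results of these data known. Genes were named by rule: a list of 38 key genes, up to 4 members of each list with the largest difference outside the range of both partners in every cell type (mean 1 CPM or more), the 12 highest and 12 lowest protein-coding genes at 10 CPM or more under that condition, the 10 smallest p between cell types at 5 CPM or more, and the 4 smallest p between numbers 2 and 3. This gave 176 genes, 41 of which overlap another tested gene, which unstranded counts cannot separate. Other names, such as Pdk1, Pck2, Egln1, P4ha1, Id3 and the members listed as not called, were chosen after their values were seen. Alternatives were DESeq2 1.42.0, library-size scaling, no filter, number as a block, each library left out, and 2 added after seeing the data: numbers 2 and 3 summed, and subtraction of the GC trend. Promoters came from RefSeq (GRCm38.p6), without those on chr18. Results for a few genes are not reported here.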

Additional observations from a re-analysis of the deposited data

Results flagged for a closer look

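The number 1 difference differed between cell types for 1399 genes by the interaction test of edgeR, and for the genes below. The value given for each is the range of the log2 difference over the 3 cell types. Among mitochondrially encoded genes it was 1.504 for mt-Nd6, 1.41 for mt-Nd2, 1.38 for mt-Nd1, 1.02 for mt-Nd4 and 0.87 for mt-Co1, each lowest in ABSC.

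Signalling and lineage genes had ranges of 1.19 for Eomes, 1.78 for Evx1, 1.04 for T, 1.53 for Lefty1, 0.61 for Lefty2, 0.73 for Nodal, 0.54 for Axin2, 1.15 for Id1, 0.68 for Fgf5, 0.44 for Nanog, 2.04 for Fos and 1.99 for Ifitm1. Stress and metabolic genes had ranges of 0.59 for Asns, 0.57 for Trib3, 0.79 for Bnip3, 1.24 for Txnip, 0.93 for Mat2a, 0.36 for Cdkn1a and 0.25 for Hspa5. Tmem185a had a range of 1.30. The calls for Hspa5, Cdkn1a, Trib3, Bnip3 and Lefty2 were lost with DESeq2 and in 3 to 6 fits with libraries left out.

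Outside the genes used, loci without an Ensembl ID held 401744 counts over all 9 libraries. They were not analysed here.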

How the results depend on the processing

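Genes called between number 1 and numbers 2 and 3 (5983) came to 3439 without number 2, 3246 without number 3 and 3790 with numbers 2 and 3 summed. Leaving out libraries gave 3246 to 6244 calls. With number as a replicate block the count was 5608, and 1771 genes differed between cell types under the replicate block. The call for Bnip3 between cell types was lost under the block. Left-out libraries cost the call between cell types in 6 fits for Hspa5, 5 for Cdkn1a, 4 each for Trib3 and Bnip3, 3 for Lefty2, and 2 each for Evx1 and Id1, and DESeq2 made no such call for Hspa5, Cdkn1a, Trib3, Bnip3 or Lefty2. Genes called between cell types (1399) came to 359 with DESeq2 and to 544 to 1866 when libraries were left out. Between numbers 2 and 3, DESeq2 called 1 gene, the fit with no filter 5 and the fit of only the 6 libraries 5, and leaving out libraries gave 0 to 2, the highest without ALSC 1. Evx1 reversed to 0.0603 without ABSC 1, and ranged from -1.21 (without ALSC 1) to 0.0603 over the left-out libraries. Over single named genes, 2615 gene and setting pairs kept direction and call, 184 lost the call, 16 gained it and 1 reversed. Of list medians, 673 moved by less than the spread and 41 by more. Scaling by library size alone changed the sign of Nanog, Lefty2 and Atp5k and of the LIF and STAT3, epithelial, mesoderm and primed epiblast medians, all near 0, and DESeq2 that of Dusp6. After subtracting the GC trend, list medians were 0.92 for low oxygen, 0.62 for ATF4, -0.40 for cholesterol, -0.23 for ribosome biogenesis and -0.24 for mitochondrially encoded genes (-0.35 before). The same step turned the sign of the unfolded protein response (0.0032 to -0.07), trophoblast (0.05 to -0.02), YAP (0.04 to -0.12), neural ectoderm (0.05 to -0.04), matrix (0.05 to -0.0059) and ribosomal protein (0.01 to -0.0085) medians, and took p53 targets from -0.04 to -0.14. Each cell type has 1 library numbered 1, and 3 counts correspond to 0.138 to 0.157 CPM, below which levels were not detectable.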

Other observations

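These groups were chosen after their values were seen, so their counts are descriptions. Host genes of small nucleolar RNAs, whose introns carry guides for ribosomal RNA modification, were mostly lower in number 1. Of 17 tested, 13 were called lower and 1 higher, with a median of -0.58, against 17.7% and 19.3% of all genes. Most are noncoding, but Taf1d (called lower) and Snhg11 are annotated as protein coding. Dancr was at 15.4 CPM in AFSC 1 against 31.3 and 33.8 CPM, at 7.90 CPM in ALSC 1 against 23.8 and 25.7 CPM, and at 7.52 CPM in ABSC 1 against 27.0 and 31.2 CPM (-1.52 ± 0.13). Each library numbered 1 was below all 6 others. Gas5 was lower by less (-0.58), and Snhg11 was the gene called higher (0.36).

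Circadian clock genes were mostly higher, with 12 of 19 called higher and 2 lower, against 19.3% and 17.7% of all genes. Their median was 0.36. Bhlhe41, a repressor of the clock, was at 11.2, 6.71 and 8.99 CPM in AFSC 1, ALSC 1 and ABSC 1 against 0.679 to 1.69 CPM in the others (3.00 ± 0.18). Those groups did not overlap. Cry2 (-0.34) and Csnk1d (-0.23) were called lower.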
